A study of Mus musculus with 6 samples.

Results

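Cd36 and 9 genes of the lipid droplet (Plin2, Plin4, Plin5, Cidec, G0s2, Pnpla2, Fitm1, Fitm2 and Mogat1) were followed in the liver of old mice with and without Itpr2. The genes were chosen by name, with earlier results of these data known, as those whose array probes map to these 10 symbols. All 10 were found among the 17991 genes tested. They were represented by 11 probes, of which Cidec had 2, and the gene probes used were well above background on all 6 arrays. Liver RNA came from 3 wild-type C57Bl/6 mice and 3 Itpr2 KO mice, all aged 23 months. Both genotypes belonged to a survival cohort kept on standard diet and water with no treatment, and livers were frozen at sacrifice. Each mouse gave 1 Agilent array, called WT 1 to WT 3 and KO 1 to KO 3, and the series design calls the mice independent. The labels used here do not say how the Itpr2 allele was made or in which cells it is lost.

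Fatty acids enter hepatocytes partly through CD36, a membrane scavenger receptor that binds long-chain fatty acids. Inside the cell they are esterified to triglyceride, which FITM proteins help to partition into droplets that bud from the endoplasmic reticulum. Perilipins and CIDE proteins coat the droplet and govern its size and access to lipases, and ATGL, the product of Pnpla2, starts triglyceride breakdown and is inhibited by G0S2. Many of these genes are known targets of the nuclear receptors PPARA and PPARG, and several are raised in fatty liver.

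The promoters of the 4 genes whose knockout arrays all lay below the wild-type arrays are shown first, to set their sequence beside values that differ in the same direction. Each is the 250 bases before the RefSeq start in GRCm38.p6, read from 5′ to 3′ on the gene's strand. Capitals mark the nuclear receptor half-site AGGTCA, searched on both strands and therefore also as TGACCT.
Cd36, chr5:17835897-17836146, minus strand: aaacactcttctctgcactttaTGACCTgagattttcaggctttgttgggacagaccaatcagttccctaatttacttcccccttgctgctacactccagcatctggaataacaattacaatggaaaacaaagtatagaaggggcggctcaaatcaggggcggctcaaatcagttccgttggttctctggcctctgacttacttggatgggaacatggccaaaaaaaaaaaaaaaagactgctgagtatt
G0s2, chr1:193273189-193273438, minus strand: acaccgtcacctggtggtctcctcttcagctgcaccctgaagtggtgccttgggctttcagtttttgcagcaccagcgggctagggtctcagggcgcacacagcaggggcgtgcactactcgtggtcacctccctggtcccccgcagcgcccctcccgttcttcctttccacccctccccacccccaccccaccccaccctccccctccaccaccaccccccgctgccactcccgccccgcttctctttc
Fitm1, chr14:55575424-55575673, plus strand: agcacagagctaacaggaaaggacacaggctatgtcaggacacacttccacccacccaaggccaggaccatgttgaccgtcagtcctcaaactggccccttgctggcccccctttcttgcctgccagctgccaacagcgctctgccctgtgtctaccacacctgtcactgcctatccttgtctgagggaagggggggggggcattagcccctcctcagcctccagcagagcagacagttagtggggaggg
Mogat1, chr1:78510810-78511059, plus strand: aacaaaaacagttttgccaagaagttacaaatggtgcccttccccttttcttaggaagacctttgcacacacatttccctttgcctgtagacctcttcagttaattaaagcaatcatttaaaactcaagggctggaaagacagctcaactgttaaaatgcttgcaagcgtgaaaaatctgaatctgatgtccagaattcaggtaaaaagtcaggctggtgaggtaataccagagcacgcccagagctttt
The half-site stood once in the Cd36 promoter, on the opposite strand with its first letter 228 bases before the start, and in none of the promoters printed for G0s2, Fitm1 and Mogat1. All 10 genes had an entry in the promoter table, with 12 promoters in all, and the half-site was in 3 of those 12 (Cd36, Plin2 and 1 of the 2 promoters of Plin5), beside 14.0% of all 32851 promoters of the same length. A direct repeat of this site with 1 base between, the form (DR1) that PPAR and RXR dimers are known to bind, was in 0 of the 12 and in 0.0335% of all promoters. With the fourth letter of each copy free, a looser search that includes the strict repeat, it was in 0 of the 12 and in 0.338% of all. At such low shares 0 of 12 would be likely for any 12 promoters, so it says nothing particular about these genes. Sites outside these 250 bases were not searched. G0s2 and Mogat1 differed in base composition, with 67.2% and 41.2% of G and C in these windows.

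Each level is a log2 signal from which the array's own 75th percentile was subtracted, and a change is the knockout mean minus the wild-type mean. Levels of different probes are not on 1 scale, so each gene is compared only with itself across arrays. With 3 arrays a genotype, precision is set by the small number of arrays. On every array between 58.7% and 60.6% of non-control probes were well above background, and all 12 hepatocyte markers (such as Alb and Ttr) were above it on all 6 arrays. Itpr2 itself had levels of 2.91, 2.94 and 2.96 in wild type and 2.41, 2.25 and 2.06 in the knockout, from 1 probe, and whether that probe lies in the deleted part is unknown here. WT 1 and KO 3 stood apart in striated muscle markers, 20 genes such as Ckm and Acta1, whose summed signal was 144 and 157 times the 75th percentile there and between 0.940 and 1.24 times on the other 4 arrays. Slide 1 carried KO 1 with WT 1 and WT 2, and slide 2 carried WT 3 with both other knockout arrays.

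Of the 10 genes, 9 had a lower mean in the knockout and Pnpla2 a higher one. Their median change was -0.60, beside 0.012 over all genes tested, of which 47.6% had a lower mean. None passed the adjusted threshold of 0.05 by limma, where 0.00556% of all genes did, and their adjusted p ran from 0.818 to 0.976. At an unadjusted p under 0.05 limma gave 4 of the 10, all lower (Cd36, G0s2, Fitm1 and Mogat1), beside 2.8% of all genes called lower at that level and 6.02% called in either direction. The same 4 had every knockout array below every wild-type array, beside 5.51% of all genes. Because the 10 genes were chosen with earlier results known, these shares describe the set and carry no test. With arrays centred on their medians only Cd36 and Fitm1 of these 4 kept the genotypes apart. The share of all genes kept apart was not counted at that scaling. There the lower share of all genes at that unadjusted p went from 46.5% to 69.7%. Without WT 2, the array with the highest level of 9 of the 10 genes, 7 had a lower mean, beside 49.7% of all genes. At that setting 2 of the 10 had an unadjusted limma p under 0.05, beside 669 of the 17991 genes, and the median change was -0.42.

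**Figure D1:**
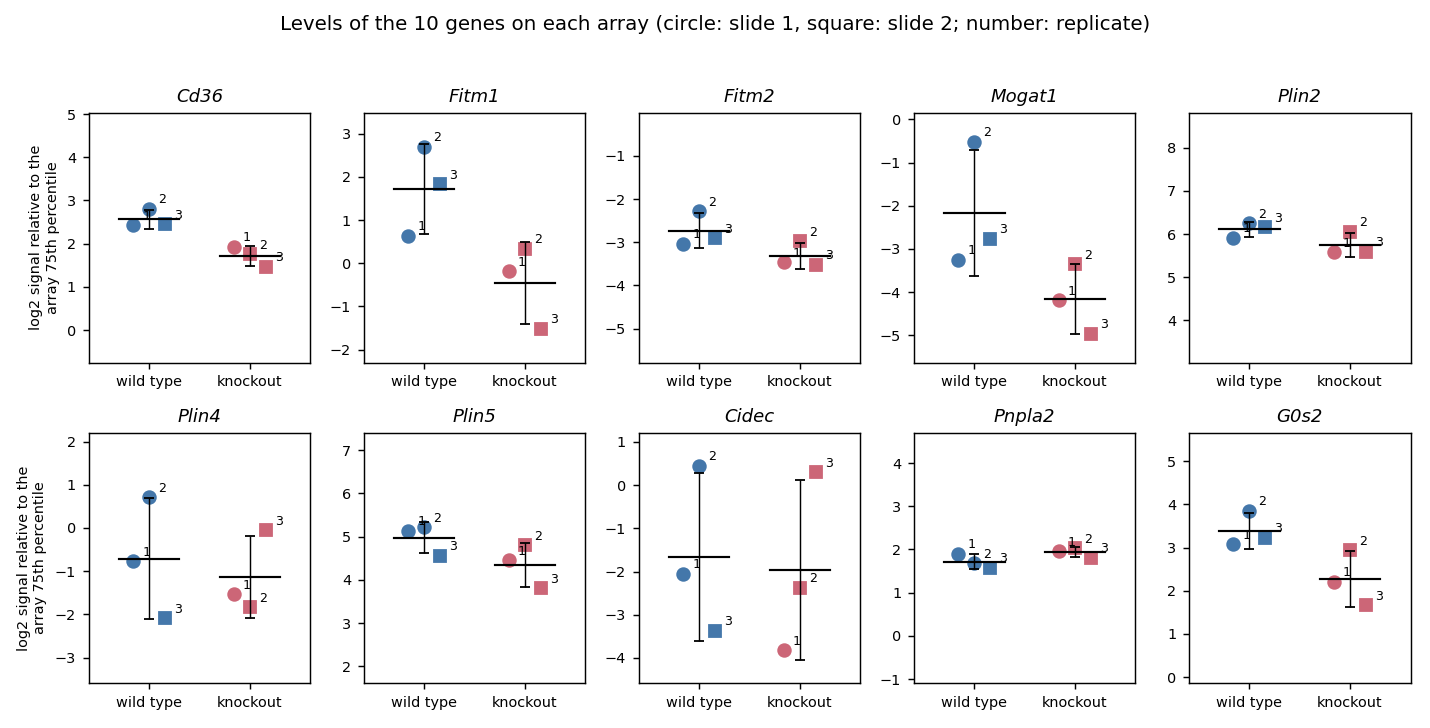
Log2 level of each gene relative to the array 75th percentile (y axis, the same span in every panel) on 3 wild-type and 3 knockout arrays; bars are group means with SD, circles slide 1, squares slide 2, and numbers the replicate. Cd36, Fitm1, Mogat1 and G0s2 are the 4 panels without overlap of the genotypes. Cidec spans several log2 units within each genotype, and Plin4 more than 1.

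**Figure D2:**
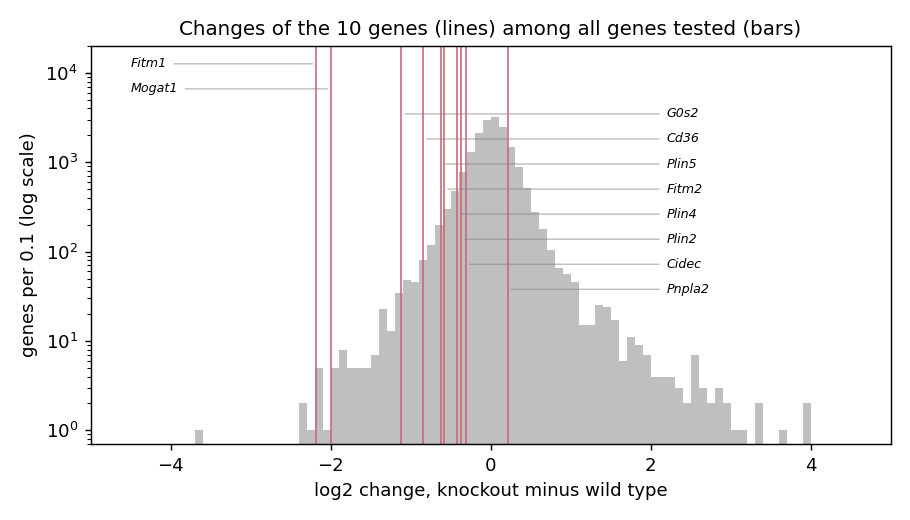
Number of genes per 0.1 of log2 change (bars, log scale) among the 17991 tested, with the changes of the 10 genes as lines. Fitm1 and Mogat1 lie near the lower end of all changes and Pnpla2 is the only line above 0.

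Cd36, the fatty acid receptor, had levels of 2.42, 2.81 and 2.46 on WT 1 to WT 3 and of 1.93, 1.76 and 1.47 on KO 1 to KO 3. The knockout arrays were all lower, with WT 1 at 2.42 and KO 1 at 1.93 the nearest of the 2 genotypes. The SD within each genotype (0.21 and 0.23, n = 3) was smaller than the difference of the means. The change was -0.84 ± 0.18 (SE), or 1.79-fold lower, with a 95% interval from -1.28 to -0.41. The unadjusted limma p was 0.00280 and the adjusted p 0.818, and the exact two-sided permutation test gave 0.1, the smallest p that 3 against 3 arrays allow. Within slides 1 and 2 the change was -0.69 and -0.84, and without the 2 muscle arrays it was -0.79. Over the 21 alternatives Cd36 was always lower in the knockout, from -1.37 to -0.69.

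Cd36 is also a gene of macrophages, endothelium, fat and muscle, and in bulk liver RNA fewer cells of a type and less RNA per cell cannot be told apart. All 13 of the 14 Kupffer cell and macrophage markers in the fit had a lower mean in the knockout, with a median change of -0.56. Their summed signal ranged from 166 to 310 in wild type and from 126 to 171 in the knockout, so the genotypes overlapped, and the part of these cells in the Cd36 difference was not tested. In wild type, WT 2 had the highest Cd36 and the lowest macrophage sum. WT 1 had the highest sum, with Cd36 at 2.42 beside 2.46 on WT 3. Among the knockout arrays KO 1 was highest in both, while KO 3 had the lowest Cd36 and KO 2 the lowest sum. Endothelial markers ranged from 54.2 to 63.1 in wild type and from 51.4 to 75.9 in the knockout, with a median change of 0.096.

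The FITM pair and Mogat1 cover triglyceride synthesis and droplet budding. Fitm1, whose protein binds triglyceride and is best known from skeletal muscle, had levels of 0.64, 2.70 and 1.83 in wild type and -0.19, 0.34 and -1.52 in the knockout. All knockout arrays were below all wild-type arrays, by as little as 0.64 on WT 1 against 0.34 on KO 2. The change was -2.18 ± 0.65 (SE), or 4.52-fold lower, with a 95% interval from -3.74 to -0.62 (limma unadjusted p = 0.0137, adjusted p = 0.818). Only 0.0334% of all genes had a change as low as that of Fitm1. The muscle arrays WT 1 and KO 3 had the lowest Fitm1 level of their genotype. Without both the change was -2.19 (limma unadjusted p = 0.00265, adjusted p = 0.561). Leaving out the lowest array of each genotype also narrows the spread, and no other setting gave a smaller p. The unadjusted limma p was 0.0327 with the slide as a block and 0.0405 without WT 2. Within slides the Fitm1 change was -1.86 and -2.42.

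Fitm2, the more widely expressed member, had levels of -3.03, -2.28 and -2.91 in wild type and -3.47, -2.98 and -3.52 in the knockout. The genotypes overlapped through KO 2, which lay above WT 1. The change was -0.58 ± 0.25 (SE), with an interval from -1.19 to 0.029 and an adjusted limma p of 0.818. Fitm2 was at -0.82 and -0.33 within slides and at -0.35 without WT 2, but normexp background correction turned it to 0.78, and leaving out the spots of extreme background there gave -0.095. The difference between the changes of Fitm1 and Fitm2 was not tested.

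Mogat1 encodes a monoacylglycerol acyltransferase that makes diacylglycerol and is known to be induced in fatty liver. Its levels were -3.25, -0.51 and -2.76 in wild type and -4.19, -3.35 and -4.96 in the knockout. The probe was dim in the knockout, and on KO 3 the lowest signal well above background was -5.61. WT 2 was far above the rest, and WT 1 cleared KO 2 by only the difference between -3.25 and -3.35. The change was -1.99 ± 0.76 (SE), or 3.98-fold lower, with a 95% interval from -3.83 to -0.16 (limma unadjusted p = 0.0375, adjusted p = 0.818). With normexp background correction the direction of Mogat1 turned, to 0.25, and with the spots of extreme background left out, a setting chosen after seeing the data, it was -0.73 with an unadjusted limma p of 0.127. A fit that blocked on slide gave Mogat1 -1.85, with an unadjusted limma p of 0.0814. Without WT 2 it was -1.16, with an unadjusted limma p of 0.0569. The genotypes overlapped in Mogat1 after quantile normalization.

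The perilipins differed among themselves. Plin2, the main droplet coat of hepatocytes, had levels of 5.91, 6.26 and 6.16 in wild type and 5.57, 6.06 and 5.59 in the knockout. KO 1 and KO 3 lay below all wild-type arrays and KO 2 above WT 1. The change was -0.37 ± 0.18 (SE), with an interval from -0.81 to 0.074, and the adjusted limma p was 0.818. Plin5, which tethers droplets to mitochondria in oxidative tissues, had levels of 5.14, 5.22 and 4.56 in wild type and 4.46, 4.80 and 3.80 in the knockout. KO 3 was the lowest array for Plin5, and KO 2 lay above WT 3. The Plin5 change was -0.62 ± 0.30 (SE), with an interval from -1.34 to 0.11 (adjusted p = 0.818 by limma's test across all genes), and it was -0.34 without KO 3 and -0.26 without both muscle arrays.

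Plin4, a perilipin of white fat and muscle, followed no genotype. Its levels were -0.76, 0.71 and -2.09 in wild type and -1.53, -1.83 and -0.052 in the knockout, so the highest array of each genotype (WT 2 and KO 3) stood more than 1 log2 unit above the lowest. The change of -0.42 ± 0.78 (SE) had an interval from -2.29 to 1.45 (adjusted p = 0.937 by limma's test across all genes), and the difference was -1.50 within slide 1 and 1.15 within slide 2. Plin3, the perilipin found in most tissues and not among the 10 genes, had a change of 0.24 ± 0.13 (SE), and Plin1, the fat cell perilipin, was above background on 3 of 6 arrays and highest on KO 3 at -2.09. Both were named outside the rule, after the values were seen.

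Cidec, which fuses droplets into larger ones and is induced in steatotic liver, showed the same array order as Plin4 at its top. Its levels were -2.05, 0.45 and -3.37 in wild type and -3.82, -2.38 and 0.30 in the knockout. WT 2 and KO 3 were the high arrays, more than 2 log2 units above the other 4, and the genotypes overlapped throughout. The change was -0.31 ± 1.30 (SE), with an interval from -3.44 to 2.82 (adjusted p = 0.976 by limma's test across all genes), and the difference was -3.02 within slide 1, which holds WT 2, and 2.33 within slide 2, which holds KO 3. The second Cidec probe was above background on 2 arrays, the same WT 2 and KO 3, at -2.68 and -3.26. Cideb, the CIDE gene of hepatocytes, had a change of -0.16 ± 0.17 (SE).

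Adipoq and Cfd, fat cell genes, divided the 2 arrays with high Cidec. Adipoq, the adiponectin gene, had a level of 0.67 on KO 3 and -5.65 on WT 2, and Cfd, the adipsin gene, had 3.29 and -3.30. On WT 1, the other array with muscle transcripts, Adipoq was at -1.59 and Cidec at -2.05. The white fat list of 11 genes with a probe had 66.2% to 97.9% of its summed signal from Car3, which liver also carries, and without Car3 its sum was 27.2 on KO 3, 7.0 on WT 1 and between 2.48 and 4.82 on the other 4. So the high Cidec and Plin4 levels came with high Adipoq and Cfd on KO 3 and not on WT 2. Cidea, also on the white fat list, was at -1.63 on WT 2, near its -1.74 on WT 1. KO 2 had Cfd at -0.070 and Adipoq at -2.96, with Cidec at -2.38. The part of fat tissue in these levels was not tested. Of this list, Lep and Trarg1 were above background on 0 of 6 arrays.

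**Figure D3:**
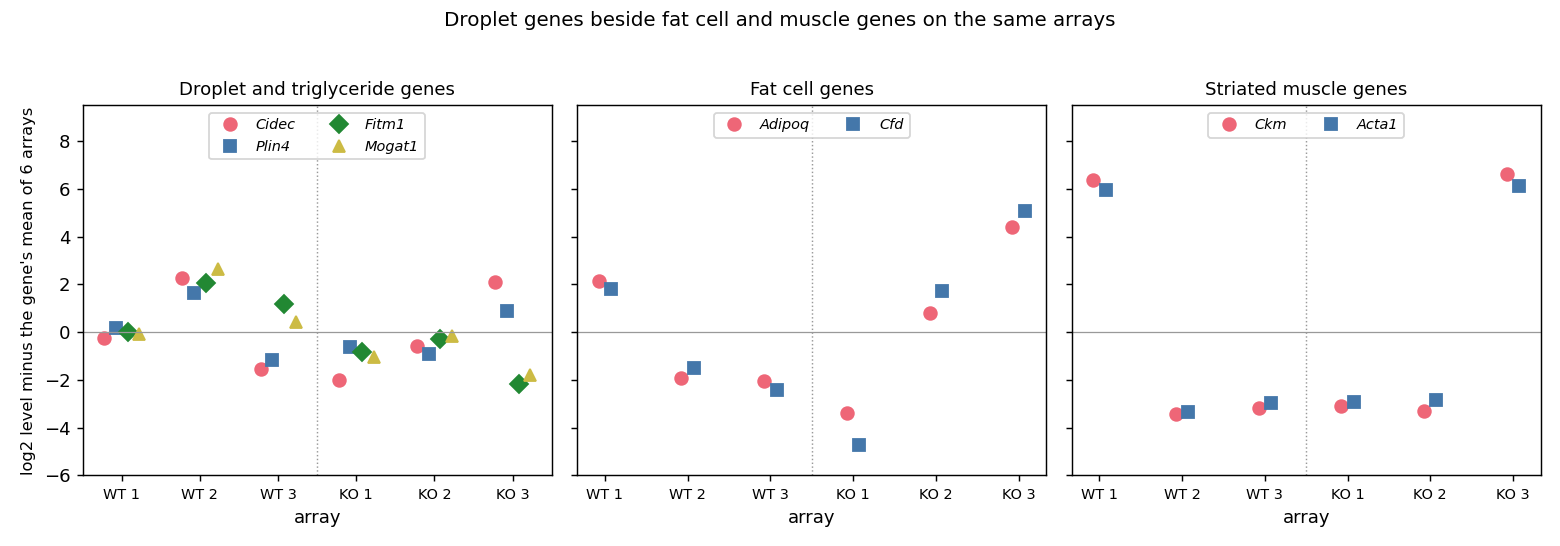
Log2 level of each gene minus its own mean over 6 arrays (y axis), for 4 droplet and triglyceride genes, 2 fat cell genes and 2 muscle genes on each array (x axis, wild type left of the dotted line). Cidec and Plin4 are high on WT 2 and KO 3, fat cell genes are highest on KO 3, and muscle genes are high on WT 1 and KO 3.

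G0s2 and Pnpla2 are the inhibitor and the enzyme of the first step of lipolysis. G0s2 had levels of 3.07, 3.86 and 3.23 in wild type and 2.21, 2.94 and 1.66 in the knockout. All knockout arrays lay below all wild-type arrays, with KO 2 the nearest. The change was -1.12 ± 0.36 (SE), or 2.17-fold lower, with a 95% interval from -1.99 to -0.24 (limma unadjusted p = 0.0199, adjusted p = 0.818). Within slides it was -1.26 and -0.93, and without both muscle arrays it was -0.97. Leaving out 1 array gave G0s2 an unadjusted limma p of 0.0245, 0.0643 and 0.0365 for WT 1 to WT 3. For KO 1 to KO 3 the unadjusted limma p was 0.0555, 0.00424 and 0.0521. With arrays centred on their medians the genotypes overlapped in G0s2.

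Pnpla2 had levels of 1.90, 1.68 and 1.58 in wild type and 1.96, 2.03 and 1.81 in the knockout. Its spread was the smallest of the 10 genes, 0.46 log2 units over all arrays, and KO 3 lay below WT 1. The change was 0.22 ± 0.14 (SE), with an interval from -0.13 to 0.56 (adjusted p = 0.837 by limma's test across all genes), and normexp background correction turned it to -0.34. Abhd5, the activator of the same lipase, had a change of 0.052 ± 0.17 (SE) at its brightest of 3 probes, and was named outside the rule. Its other probes had lower knockout means, -0.89 against -0.75 and -0.77 against -0.55 in wild type.

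**Figure D4:**
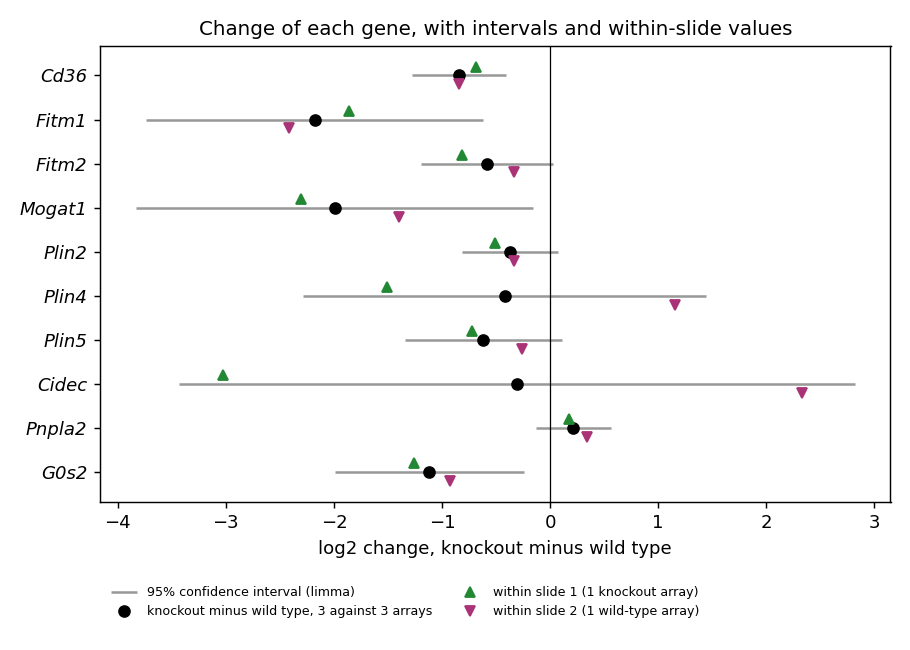
Log2 change of each gene, knockout minus wild type (black points, 3 against 3 arrays), with 95% intervals from limma (grey) and the differences within slide 1 and slide 2 (triangles). The intervals of Cd36, Fitm1, Mogat1 and G0s2 lie below 0 before adjustment, and the within-slide values of Plin4 and Cidec have opposite signs.

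Several of the 10 genes also varied together within genotypes. WT 2 had the highest wild-type level of 9 genes and KO 2 the highest knockout level of 7, while WT 1 had the lowest of 6 and KO 3 the lowest of 7. With each genotype's mean removed, the deviations of Fitm2 and Mogat1 over the 6 arrays had a Pearson r of 0.97, those of G0s2 and Fitm1 0.90 and those of Cd36 and Fitm1 0.83. Cidec and Plin4 had 0.92 with each other. Cidec had -0.12 with Cd36, -0.034 with G0s2 and -0.11 with Fitm1, but 0.38 with Fitm2 and 0.30 with Mogat1, and Plin4 had 0.30 and 0.32 with the latter pair. Pnpla2 had 0.78 with Plin5 and between -0.25 and 0.29 with the other genes, and Cd36 had 0.37 with Plin2. These correlations describe 6 arrays that share slides, scaling and the muscle signal of WT 1 and KO 3, and carry no test.

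**Figure D5:**
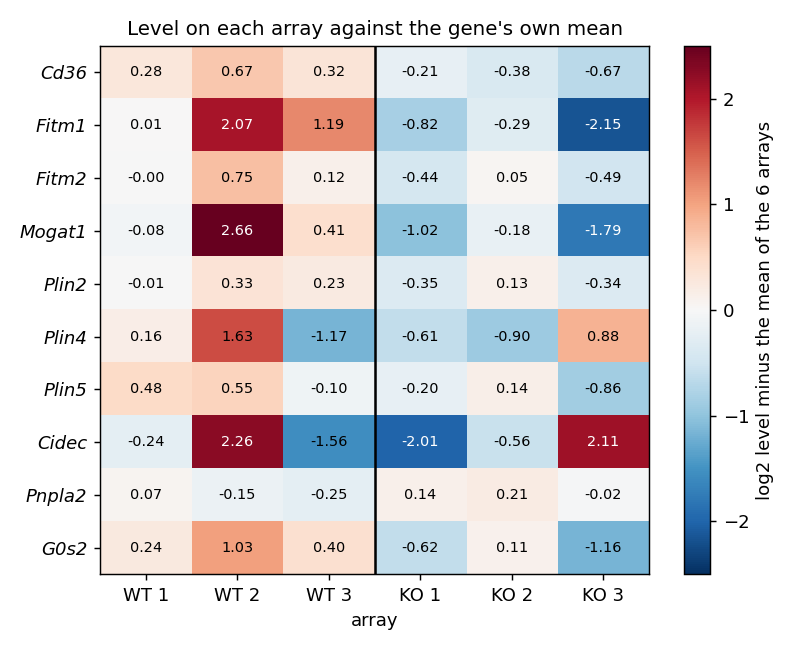
Log2 level of each gene (rows) on each array (columns) minus the gene's mean over 6 arrays, with wild type left of the black line. WT 2 is the highest array for every gene but Pnpla2, and on KO 3 Cidec and Plin4 are high where Fitm1, Mogat1 and G0s2 are lowest.

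By Pearson correlation of levels over the 6 arrays, the genes most like Cd36 among 13099 compared were Rnf7 (r = 0.995), Crat (0.994), Mrpl10 (0.992), Mtap (0.987) and Spata5l1 (0.987). Among those most like Fitm1 were E2f3 (r = 0.998), Aox1 (0.989) and Pex11a (0.981). These are the top of a ranking over all genes and carry no test. The changes of these 8 genes were of very different size, from -0.18 for Mrpl10 to -1.19 for Pex11a.

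Other genes of the pathway were read from lists chosen with earlier results of these data known, and 0 of their genes passed the adjusted threshold by limma. Of 13 genes of fatty acid uptake, binding and activation in the fit, 7 had a lower mean, with a median change of -0.0089, and 2 had an unadjusted p under 0.05. Over all genes tested the shares were 47.6% and 6.02%, to be set beside the counts of every list below. Fabp5, a fatty acid binding protein, had levels of 4.09, 3.65 and 4.0 in wild type and 6.79, 4.60 and 6.34 in the knockout, a change of 2.00 ± 0.55 (SE), opposite in direction to Cd36. Fabp2, known from the intestine, had a change of -1.03 ± 0.38 (SE). Slc27a5, a liver fatty acid transporter, had 0.15 ± 0.13 (SE).

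Among 14 other droplet genes in the fit, 9 had a lower mean and 0 an unadjusted p under 0.05. The shares of all genes were 47.6% and 6.02%, here and for the 2 lists that follow. The median of the droplet genes was -0.099, and Hilpda, an inhibitor of lipolysis like G0s2, had -0.34 ± 0.17 (SE). Of 14 other lipolysis genes 8 had a lower mean and 0 an unadjusted p under 0.05, with a median of -0.069. Mgll, which cleaves monoacylglycerol, had -0.87 ± 0.41 (SE), and Aadac, a lipase of the endoplasmic reticulum, 0.045 ± 0.15 (SE). Of 13 other triglyceride synthesis genes 9 had a lower mean and 1 an unadjusted p under 0.05, with a median of -0.044. That gene was Gpat3, an acyltransferase of the first step, at -0.70 ± 0.26 (SE), while Dgat2, which makes triglyceride from diacylglycerol, had means of 6.71 in both genotypes.

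Of 15 regulators in the fit 10 had a lower mean and 0 an unadjusted p under 0.05, beside 47.6% and 6.02% of all genes. Mlxipl, the gene of the carbohydrate response factor ChREBP, had a change of 0.39 ± 0.19 (SE), and Creb3l3, a fasting response factor, -0.19 ± 0.16 (SE). Ppara and Pparg, named outside the rule, had changes of -0.079 ± 0.21 (SE) and -0.37 ± 0.22 (SE), and Pparg was highest on WT 2, at 1.85 where the other arrays had 0.84 to 1.22. Targets of PPARA outside the droplet were the list with the lowest median, -0.62. There 17 of 18 had a lower mean, and 4 an unadjusted p under 0.05, all lower, beside 47.6% and 2.8% of all genes. In 6 of the 18 all knockout arrays lay below all wild-type arrays, beside 5.51% of all genes, and in the rest the genotypes overlapped. Cyp4a14, a fatty acid hydroxylase, had levels of 6.85, 7.19 and 6.76 in wild type and 5.54, 6.41 and 3.47 in the knockout, and Retsat, retinol saturase, 5.15, 5.17 and 4.73 against 4.23, 4.59 and 2.65. For both, KO 3 was far the lowest array and KO 2 the nearest to wild type, the same order as in G0s2, Fitm1 and Mogat1. Acot1 and Acot2, acyl-CoA thioesterases, had changes of -1.91 ± 0.51 (SE) and -1.39 ± 0.43 (SE).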

How the data were processed

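Total RNA from frozen liver was labelled with Cy3 and hybridised to 1-colour Agilent arrays, per the labels' protocols. The deposited tables hold intensity values from Agilent's Feature Extraction software (11.5.1.1 in the file headers, 10.7.3.1 per the submitters' processing notes) without scaling across arrays. A second table that the authors deposited has log2 values of 20644 probes; these matched scanner values scaled as below and centred by probe, with the same direction. Its column medians were 0.00207, -0.0094, 0.00497, -0.0127, 0.0106 and 0.00617 for WT 1 to WT 3 and KO 1 to KO 3. Its KO 2 and KO 3 columns matched the scanner arrays KO 3 and KO 2, so the scanner tables name the arrays here.

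The array's 75th percentile was subtracted from log2 processed intensity, without control spots and 818 outlier spots, with spots of a probe averaged. Of 39429 probes, 28330 had 1 symbol, 0 several and 11099 none, through RefSeq accessions of assembly GRCm38.p6, which also gave promoters and their coordinates; the array design is on mm9 per the file headers. Probes well above background on all 3 arrays of a genotype were kept (22297), and a gene was read at its brightest probe by mean level. Genotypes were compared with limma 3.58.1 in R 4.3.3 (lmFit and eBayes, two-sided, Benjamini-Hochberg over 17991 genes). Data of 17881 genes were simulated for this comparison, with 50 changed per size and all sizes together. There the adjusted threshold recovered 0% of log2 changes of 0.5, 42% of 1, 74% of 2 and 94% of 3. It also called 8 unchanged genes. These shares are for the genes placed and were not split by the spread of a gene. The SD in wild type and knockout was 1.03 and 0.96 for Fitm1, and 1.46 and 0.81 for Mogat1. So the 74% cannot be read as the recovery of Fitm1 or Mogat1.

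The members and lists were chosen with earlier results of these data known. Named are all 10 members, Itpr2, the 5 genes most like Cd36 and Fitm1, and from each list the genes at unadjusted p under 0.05, or else the smallest p, and the gene of each list with the highest mean; other names are marked. Some genes that this rule picks are not reported here.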

Additional observations from a re-analysis of the deposited data

How the results depend on the processing

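The count of members past the adjusted threshold was 0 under all 19 alternatives with a test. The count with a lower mean was 6 to 9 over 21 alternatives, beside 36.8% to 60.6% of all genes. The median change over the members was negative in all 21, from -1.04 to -0.33. It was -1.04 within slide 1, and from -1.0 (without WT 3) to -0.42 (without WT 2) over the omission of 1 array. Plin4 turned to 0.24 with normexp, 1.15 within slide 2, 0.29 without WT 2 and 0.64 without WT 2 and KO 2, the arrays highest in the white fat sum, which is mostly Car3 there. Cidec turned to 0.80, 2.33, 0.75 and 0.95 under the same 4 settings in that order and to 0.62 without KO 1. Without Car3 the highest are KO 3 and WT 1, the muscle arrays, and leaving those out gave Plin4 -0.99 and Cidec -1.64. Leaving out 1 array gave Plin4 -1.11 to 0.29 and Cidec -1.44 to 0.75. Normexp, run on the median foreground signal, also turned Pnpla2 to -0.34, Fitm2 to 0.78 and Mogat1 to 0.25, with a median over all genes of 0.13. Without spots whose background exceeded the foreground by over 100, chosen after seeing the data, no sign turned, and the cause was not tested. Cd36, G0s2, Fitm1, Plin2 and Plin5 kept their direction in all 21. Over all genes, the deviations of arrays with the same replicate number had r of -0.19, 0.042 and -0.28. Those of arrays with different numbers had r from -0.15 to 0.30. This cannot decide whether the numbers mark pairs, with 3 arrays a genotype and with KO 2 and KO 3 exchanged between the deposited tables. With the replicate block 6 of the 10 genes had an unadjusted p under 0.05, against 4, beside 1143 of the 17991 genes tested, and the lowest adjusted p was 0.766. With the slide as a block 3 of 10 did, beside 922 of all genes, and the Mogat1 change was -1.85 (unadjusted p = 0.0814). Within-slide values rest on 1 array of a genotype.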

Other observations

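Cidea, the CIDE gene of brown fat that is also known from steatotic liver, had levels of -1.74, -1.63 and -5.83 in wild type and -5.04, -2.56 and -0.10 in the knockout. It was high on WT 2 and KO 3, as Cidec was, and on WT 1 as well, where Cidec was not, and its change of 0.50 ± 1.57 (SE) had an adjusted limma p of 0.964. Fabp4, the fatty acid binding protein of fat cells and macrophages, was highest on KO 3, at 3.70, and lay between 1.12 and 2.27 on the other 5 arrays. Mogat2, the intestinal relative of Mogat1, had levels of -2.81, -2.35 and -2.49 in wild type and -1.83, -3.09 and -3.52 in the knockout, with a change of -0.26 ± 0.43 (SE) and with KO 1 the highest array. These genes were named after their values were seen.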
